A study of Homo sapiens with 2 samples.

Results

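EGR1, EGR2, EGR3, NR4A1, NR4A2, NR4A3, IER2, IER5 and SRF are 9 of the 36601 genes counted in human umbilical vein endothelial cells (HUVECs), primary vein cells that lined microfluidic channels of 50 µm after about 48 hours of growth. The 9 genes were taken by symbol as the EGR and NR4A factors with the related immediate early genes IER2 and IER5 and with SRF, a regulator of such genes. The set was selected on the folds and shares of cells measured between these same libraries, so its levels and folds are given as a description. In the 5% pdRBC group the lining was perfused for 4 hours with a suspension in which 5% of the red cells were pharmacologically dehydrated (pdRBC): nystatin and washes in high sucrose had raised their mean corpuscular hemoglobin concentration (40 to 42 g/dL). Dehydration makes red cells less deformable, as sickle red cells are. In the hRBC group the lining was perfused for the same time with healthy red cells, which also make up the remainder of the 5% pdRBC suspension. Both groups were grown in endothelial growth medium with dextran at seeding, and both had flow, red cells and a red cell lysis step before capture. Static cells and cell-free perfusion were not analysed here.

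A single library of 5′ single-cell RNA stands for each group. Differences are therefore unreplicated and are given without a test. How many devices, cultures or red cell donors went into a library is not given in the sources used here. After the cell filter the 5% pdRBC library held 1601 cells with 16127985 UMIs (unique molecular identifiers, which count captured RNA molecules), and the hRBC library 2555 cells with 13335148 UMIs. Depth per cell differed: the median was 9566 UMIs in 5% pdRBC cells and 2175 UMIs in hRBC cells, and the filter had left out 34 (2.08%) and 1303 (33.8%) of their barcodes. All 10 endothelial markers were detected, with 3811 CPM (UMIs relative to the library's total) in 5% pdRBC cells and 4029 CPM in hRBC cells. Erythroid markers summed to 1 UMI in 5% pdRBC cells and 12 UMIs in hRBC cells, with HBA1, HBA2, ALAS2 and SLC4A1 at 0 in both libraries. Both libraries listed 9 barcodes in common, and leaving these out changed no count of the 9 genes called, with EGR1 at a log2 fold of 3.01 in place of 2.98.

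Immediate early genes are transcribed within minutes of a stimulus without new protein synthesis. A common route runs from growth factor receptors or mechanical load through the kinase ERK to ETS-family partners of SRF (serum response factor), which bind with SRF at CArG boxes, the motif CCWWWWWWGG with W for A or T. EGR proteins are zinc finger factors, NR4A proteins are orphan nuclear receptors, and in endothelium both families are known to answer to flow, growth factors and inflammatory signals.

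The promoters are shown because CArG boxes are the sites through which SRF acts, and because EGR1 and SRF, the genes at the opposite ends of the folds among those measured, each have an entry with a pair of them. RefSeq promoter entries of GRCh38.p14 were found for 7 of the 9 genes, and the 250 bases before the annotated start were searched on both strands. Each sequence runs 5′ to 3′ on the gene's strand and ends just before the start, with CArG boxes in capitals. EGR1 is at chr5:138465229-138465478 (plus strand), SRF at chr6:43171019-43171268 (plus strand) and EGR2 at chr10:62816367-62816616 (minus strand).
EGR1: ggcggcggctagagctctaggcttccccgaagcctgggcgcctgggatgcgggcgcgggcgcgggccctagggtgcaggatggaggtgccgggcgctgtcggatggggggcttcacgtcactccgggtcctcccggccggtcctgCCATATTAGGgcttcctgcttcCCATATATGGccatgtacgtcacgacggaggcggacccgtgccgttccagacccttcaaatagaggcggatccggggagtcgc
SRF: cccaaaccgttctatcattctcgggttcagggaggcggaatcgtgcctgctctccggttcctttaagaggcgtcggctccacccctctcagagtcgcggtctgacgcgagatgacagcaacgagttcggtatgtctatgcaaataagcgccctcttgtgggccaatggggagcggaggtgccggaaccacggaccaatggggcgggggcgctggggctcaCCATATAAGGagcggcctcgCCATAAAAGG
EGR2: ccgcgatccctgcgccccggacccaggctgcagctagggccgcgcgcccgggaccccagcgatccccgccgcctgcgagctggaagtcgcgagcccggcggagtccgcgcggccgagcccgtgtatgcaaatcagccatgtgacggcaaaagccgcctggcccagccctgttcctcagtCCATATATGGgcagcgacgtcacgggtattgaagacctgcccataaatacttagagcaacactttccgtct

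EGR1 held CArG boxes beginning 105 and 83 bases before the start, and 1 of the 2 SRF entries held boxes beginning 30 and 10 bases before it. Of the 3 EGR2 entries 1 held 1 box, 71 bases before the start, with the same letters as the second EGR1 box, CCATATATGG. No CArG box was in the other entries of SRF and EGR2 or in any window of NR4A1, NR4A3, IER2 or IER5. Among all 35116 RefSeq promoter entries 407 (1.16%) held at least 1 box in the same window and 11 (0.0313%) at least 2. The letters TGACG, part of the cyclic AMP response element TGACGTCA, were in windows of EGR1, EGR2, NR4A3, IER2 and SRF and in 21.2% of all entries. CCGGAA, 1 form of the sites that ETS factors bind, was in windows of NR4A1, IER2, IER5 and SRF, not in that of EGR1, and in 14.5% of entries. Other forms of ETS sites were not searched, so its absence does not show that a window lacks such sites. GCGNGGGCG, a site that EGR proteins bind, was in the windows of EGR1 and SRF and in 8.41% of entries. AAAGGTCA, the element that NR4A proteins bind as monomers, was in none of the members' windows and in 1.05% of entries. A match is a run of letters and not a measured binding site.

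Of the 9 genes, EGR1 and NR4A2 stood higher in 5% pdRBC cells by a wide margin, IER2 and NR4A1 by little, and IER5 and SRF were level. EGR2, EGR3 and NR4A3 were too sparse for the measured set of 11043 genes, those with 100 or more UMIs over both libraries, so 6 of the 9 were measured. A gene was called at a fold of 1.5 or more with a 95% interval leaving out 1. By that rule 2 of the 6 were called higher, against 1.55% of all measured genes, and 0 were called lower, against 1.09%. The same pair passed at a fold of 2 or more, against 0.272% of measured genes, and at a minimum of 20 UMIs NR4A3 joined them, against 2.44% of the 14256 genes then measured. Since the genes were chosen with these folds known, nothing is read from that share. All intervals here cover counting error only and hold neither the spread between devices nor that between cells.

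EGR1 (ENSG00000120738, chromosome 5, 138465490 to 138469315 in GRCh38), the zinc finger factor that leads the early response in many cell types, gave 1166 UMIs in 5% pdRBC cells and 122 UMIs in hRBC cells. Its level was 72.3 CPM (Poisson 95% interval 68.2 to 76.6) in 5% pdRBC cells and 9.15 CPM (7.60 to 10.9) in hRBC cells. This was 7.87-fold higher (6.55 to 9.60), the highest fold of the 11043 measured genes. The intervals of the levels lay far apart. EGR2, known for its part in myelination by Schwann cells, gave 1 UMI in 5% pdRBC cells and 3 UMIs in hRBC cells, at or under the floor of 3 counts, which is 0.186 and 0.225 CPM. EGR3, a relative that VEGF induces in endothelium, gave 5 UMIs in 5% pdRBC cells and 11 UMIs in hRBC cells (2.53-fold lower, with an interval of 0.852 to 9.77 that includes 1). EGR4, a relative that was not among the 9, gave 4 UMIs in 5% pdRBC cells and 17 UMIs in hRBC cells. It was 4.70-fold lower, with an interval of 1.68 to 21.0 that leaves out 1. No EGR gene other than EGR1 therefore showed a higher level, and all of these counts are small.

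NR4A2 (Nurr1, ENSG00000153234, chromosome 2, 156324432 to 156342348) stood out among the nuclear receptors, with 119 UMIs and 7.38 CPM (6.11 to 8.83) in 5% pdRBC cells, against 25 UMIs and 1.87 CPM (1.21 to 2.77) in hRBC cells. The fold of 3.87 (2.54 to 6.32) was the 7th highest of the 11043. NR4A1 (Nur77), which had the most UMIs of the 3 receptors, stood at 50.8 CPM (47.4 to 54.4) in 5% pdRBC cells and 45.3 CPM (41.8 to 49.1) in hRBC cells. Its fold of 1.12 (1.01 to 1.25) only just left out 1. NR4A3 (NOR1) gave 35 UMIs in 5% pdRBC cells and 15 UMIs in hRBC cells (1.89-fold higher, 1.03 to 3.80). Its 35 UMIs lay in 23 cells of 5% pdRBC, and its 15 UMIs in 13 cells of hRBC. Leaving out the 10 cells of 5% pdRBC richest in a gene, and no hRBC cell, can only lower its fold. After that step EGR1 was still 6.69-fold higher (5.56 to 8.17) and NR4A2 2.96-fold higher (1.91 to 4.88).

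IER2, which encodes a small nuclear protein, stood at 166 CPM (2682 UMIs) in 5% pdRBC cells and 132 CPM (1757 UMIs) in hRBC cells. The fold was 1.26 (1.19 to 1.34), below the size called. IER5, a relative that acts with the phosphatase PP2A on the heat shock factor HSF1, was at 25.1 CPM (22.7 to 27.7) in 5% pdRBC cells and 24.4 CPM (21.8 to 27.2) in hRBC cells, and its intervals overlapped almost entirely. SRF itself was at 35.8 CPM in both libraries, from 577 UMIs in 5% pdRBC cells and 477 UMIs in hRBC cells, with a log2 fold between -0.18 and 0.18. Of the 6 measured genes 4 had an interval leaving out 1 upward, against 15.4% of all measured genes, and 0 downward, against 12.2%. The genes lie on 9 chromosomes, and opposite-strand genes overlap EGR3, NR4A1 and IER2. Whether counting used strand is not stated, so reads of IER2 and of its antisense partner AC011446.2, counted at 58 UMIs in 5% pdRBC cells and 102 UMIs in hRBC cells, may not be separable.

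**Figure D1:**
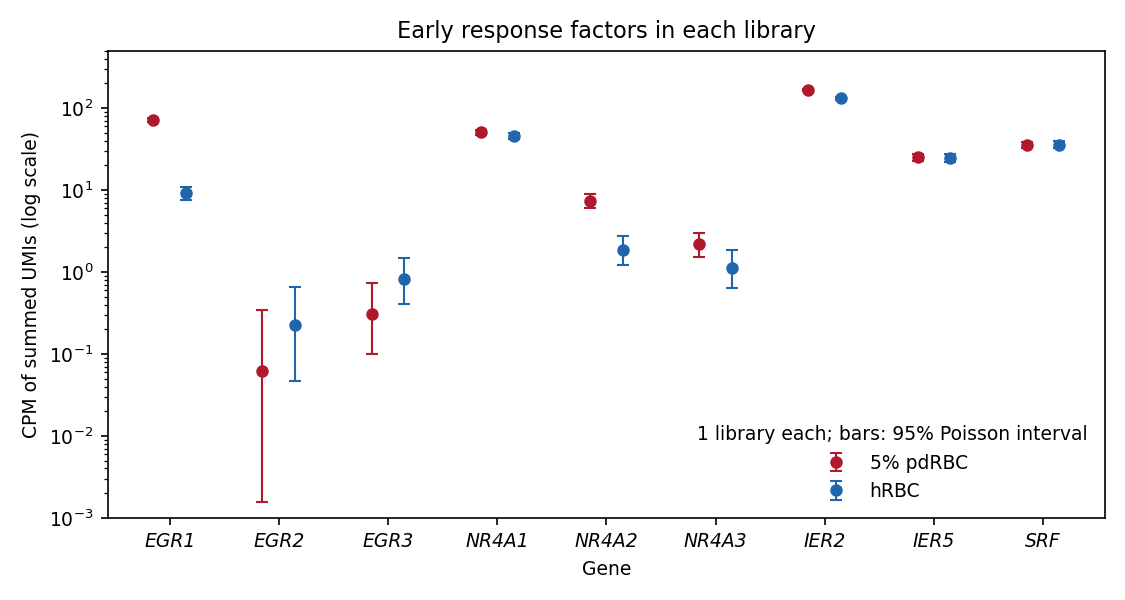
Level of each of the 9 genes in CPM of summed UMIs (log axis) in the 5% pdRBC library (red, left) and the hRBC library (blue, right), with Poisson 95% intervals. EGR1 and NR4A2 are clearly apart, at 72.3 and 9.15 CPM and at 7.38 and 1.87 CPM, while IER5 and SRF overlap.

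Because the libraries differed in depth, each gene was also read within classes of cells of like depth. EGR1 was higher in 5% pdRBC cells in each of the 4 classes from 2000 UMIs upward. The classes hold cells from the first named depth up to the second. At 2000 to 5000 UMIs it stood at 50.9 CPM (33 UMIs) in 187 cells of 5% pdRBC and 3.40 CPM (6 UMIs) in 606 cells of hRBC. At 5000 to 10000 UMIs the levels were 41.6 and 6.23 CPM, at 10000 to 20000 UMIs 90.7 and 10.2 CPM, and from 20000 UMIs 79.3 and 9.37 CPM, with 5% pdRBC first. The best-filled class, 664 cells of 5% pdRBC and 479 cells of hRBC with 10000 to 20000 UMIs, gave 8.83-fold (6.93 to 11.6). The shallowest class, 1000 to 2000 UMIs, did not show the difference: 44 cells of 5% pdRBC held 1 UMI of EGR1 (14.6 CPM, 0.371 to 81.6) and 1180 cells of hRBC held 23 UMIs (14.0 CPM, 8.86 to 21.0). The interval of that 1 UMI reaches the level seen in the deeper 5% pdRBC cells, so the class cannot show a difference at this depth. In the hRBC library the shallowest class had an interval above the 3.40 CPM (1.25 to 7.40) of the next class and overlapping that of the class from 10000 UMIs (7.92 to 12.9).

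NR4A2 was likewise higher in the middle classes, at 7.32 CPM (37 UMIs) in 5% pdRBC cells and 2.83 CPM (5 UMIs) in hRBC cells of 5000 to 10000 UMIs. The fold there, 2.38 (1.01 to 8.44), only just left out 1. At 10000 to 20000 UMIs NR4A2 stood at 8.27 CPM (73 UMIs) in 5% pdRBC cells and 1.95 CPM (13 UMIs) in hRBC cells (4.11-fold, 2.33 to 8.33). Outside these classes at most 5 UMIs of NR4A2 per library were counted. At 2000 to 5000 UMIs there were 5 UMIs in 5% pdRBC cells and 1 UMI in hRBC cells. The interval of that fold left out 1 but was very wide (9.98-fold, 1.52 to 643), so no order is read in these classes. IER2 had folds that were higher in deeper classes from 2000 UMIs upward. It was level in cells of 2000 to 5000 UMIs (147 CPM in 5% pdRBC, 145 CPM in hRBC; 1.01-fold, 0.789 to 1.28), then 1.21-fold higher (1.04 to 1.42), 1.33-fold higher (1.22 to 1.45) and, from 20000 UMIs, 1.77-fold higher (1.45 to 2.17). NR4A1, IER5 and SRF had intervals of the fold that included 1 in every class, except NR4A1 at 10000 to 20000 UMIs (1.16-fold, 1.00 to 1.33). The share of mitochondrial UMIs was close in cells of like depth, with a median of 1.71% in 5% pdRBC cells and 1.72% in hRBC cells of 10000 to 20000 UMIs.

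**Figure D2:**
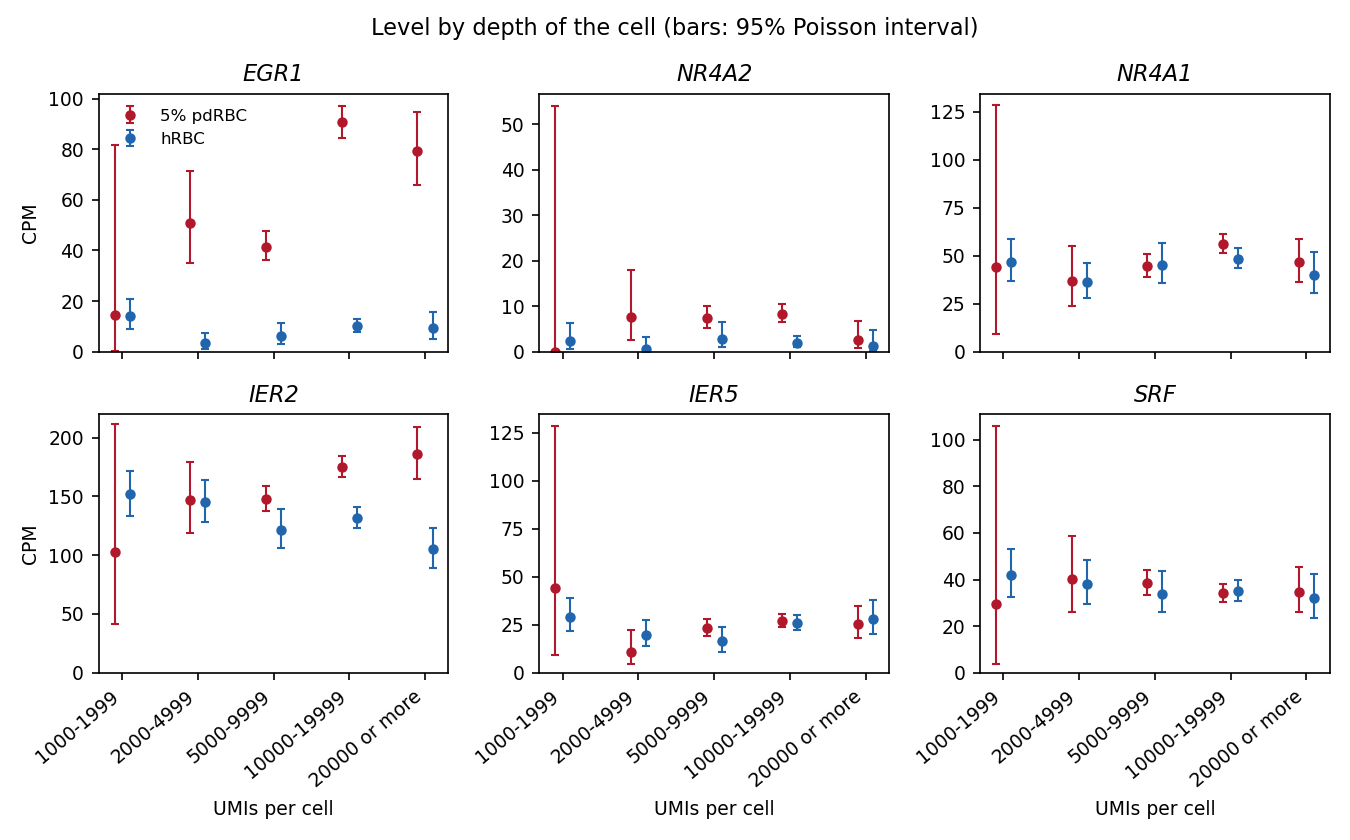
CPM by UMIs per cell for 6 genes in 5% pdRBC cells (red) and hRBC cells (blue), with Poisson 95% intervals. EGR1 is higher in 5% pdRBC cells from 2000 UMIs upward, the IER2 points move apart with depth, and SRF and IER5 run together.

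The difference in EGR1 lay both in how many cells carried it and in how much each carried. For these shares every cell was thinned to 5000 UMIs, which kept 1370 cells of 5% pdRBC and 769 cells of hRBC and left out 231 and 1786 shallower cells. EGR1 was then detected in 210 cells of 5% pdRBC, 15.3% (exact binomial 95% interval 13.5 to 17.3), and in 21 cells of hRBC, 2.73% (1.70 to 4.14). Unthinned, the shares were 18.4% of 5% pdRBC cells and 3.13% of hRBC cells. The cells that had it carried on average 2.13 UMIs in 5% pdRBC and 1.24 UMIs in hRBC. At 3 or more UMIs there were 58 cells (4.23%) of 5% pdRBC and 1 cell (0.130%) of hRBC, and the richest cells held 9 UMIs in 5% pdRBC and 3 UMIs in hRBC. Of 12 clusters of cells 11 were named endothelial-like, and the other, 14 shallow cells of 5% pdRBC, had 8 of the 10 endothelial markers. No cell type that should lack these genes was thus at hand to measure the share that free RNA gives, and its part in these shares was not tested.

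The EGR1 UMIs of the 5% pdRBC library lay in few of its cells. Before thinning, the 161 richest cells, 10% of the library, held 84.7% of its UMIs, the 17 richest held 23.2%, and 1 cell held 32 UMIs. The Fano factor, the variance over the mean and 1 for counts that vary by sampling alone, was 2.92 in 5% pdRBC cells and 1.43 in hRBC cells at 5000 UMIs. SRF lay at 0.952 in 5% pdRBC cells and 0.951 in hRBC cells, that is, no more uneven than sampling. IER2 was detected at near the same share, 44.5% (41.8 to 47.1) of 5% pdRBC cells and 41.4% (37.8 to 44.9) of hRBC cells, but was more uneven, with Fano factors of 1.84 in 5% pdRBC and 1.31 in hRBC cells. Its cells with 3 or more UMIs were 110 (8.03%) in 5% pdRBC and 20 (2.60%) in hRBC. The shares of cells with IER2 overlapped in their intervals, and the shares of its rich cells differed more.

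NR4A1 gave 20.4% (18.3 to 22.6) of 5% pdRBC cells and 18.6% (15.9 to 21.5) of hRBC cells, and SRF 16.4% of 5% pdRBC cells and 16.1% of hRBC cells. NR4A2 was in 40 cells of 5% pdRBC (2.92%, 2.09 to 3.95) and 5 cells of hRBC (0.650%, 0.211 to 1.51), almost always as a single UMI. IER5 was in 10.5% of 5% pdRBC cells and 9.88% of hRBC cells, and NR4A3 in 13 cells of 5% pdRBC and 4 cells of hRBC. EGR2 was in 0 of the 1370 cells of 5% pdRBC, which by the limit of 3 counts allows a share of cells with a UMI of up to 0.219%, and in 1 cell of hRBC. EGR3 was in 2 cells of 5% pdRBC and 1 cell of hRBC.

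**Figure D3:**
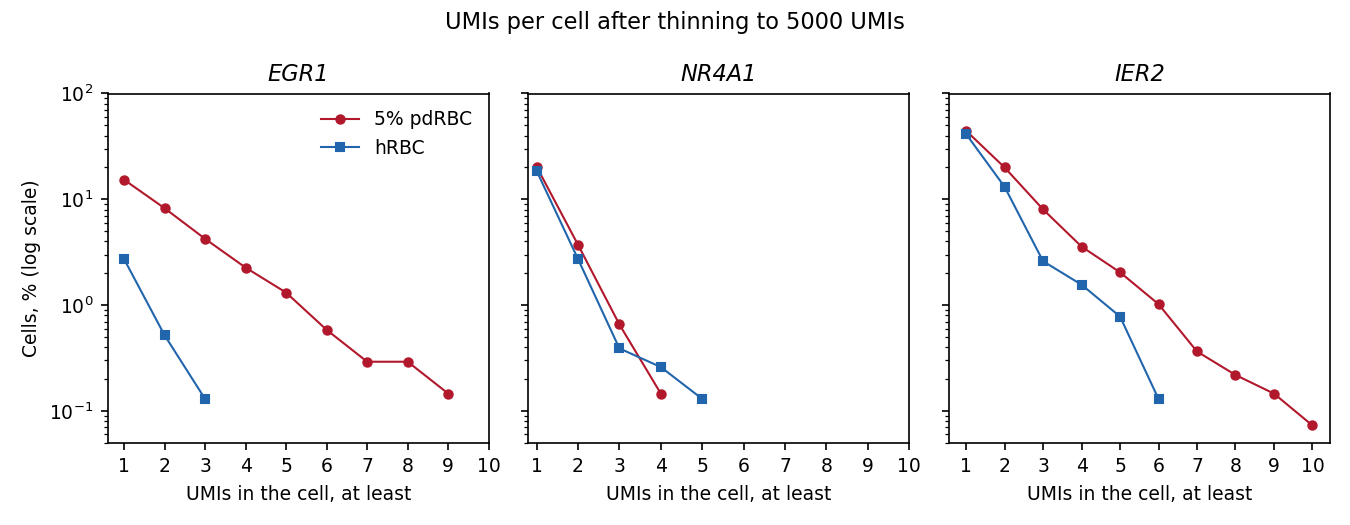
Share of cells (log axis) with at least the given number of UMIs of EGR1, NR4A1 and IER2 after thinning to 5000 UMIs, for 5% pdRBC (red) and hRBC (blue). The EGR1 curves are apart from the first point, at 15.3% and 2.73%, whereas the IER2 curves start at 44.5% and 41.4% and part to the right.

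Within the 5% pdRBC library most of the early genes were detected more often in cells with EGR1 than in cells without it. IER2 was detected in 75.7% (69.3 to 81.4) of the 210 cells with EGR1 and in 38.8% (36.0 to 41.7) of the 1160 cells without it. NR4A1 was in 37.6% (31.0 to 44.5) of cells with EGR1 and 17.2% (15.1 to 19.5) of cells without. NR4A2 was in 7.62% (4.42 to 12.1) of cells with EGR1 and 2.07% (1.33 to 3.06) without, and NR4A3 in 3.81% (1.66 to 7.37) and 0.431% (0.140 to 1.00). IER5 was in 17.1% (12.3 to 22.9) of cells with EGR1 and 9.31% (7.70 to 11.1) without. SRF did not follow them, at 18.6% (13.6 to 24.5) with EGR1 and 16.0% (14.0 to 18.3) without. Pairs without EGR1 were mixed. NR4A3 was in 2.87% (1.25 to 5.57) of cells with NR4A1 and in 0.458% (0.149 to 1.07) of those without. IER5 was in 13.5% (10.9 to 16.4) of cells with IER2 and in 8.15% (6.30 to 10.3) of those without. Both had intervals apart, the first from few cells with NR4A3, but neither did with cells thinned to 2000 UMIs. IER5 was then in 3.98% (2.24 to 6.48) of cells with IER2 and in 4.07% (3.01 to 5.36) of those without. NR4A3 was then in 2.13% (0.441 to 6.09) of cells with NR4A1 and in 0.212% (0.0437 to 0.618) of those without. Other pairs were closer at 5000 UMIs. IER2 was in 51.6% (45.6 to 57.6) of the 279 cells with NR4A1 and in 42.6% (39.7 to 45.6) of those without, with intervals that touched. With cells thinned to 2000 UMIs this pair had intervals apart, at 37.6% (29.6 to 46.1) with NR4A1 and 22.9% (20.7 to 25.2) without. At 5000 UMIs IER5 was in 10.0% (6.77 to 14.2) of cells with NR4A1 and 10.6% (8.87 to 12.6) of those without. NR4A1 was in 22.5% (10.8 to 38.5) of the 40 cells with NR4A2 and in 20.3% (18.2 to 22.6) of those without. These are cells of 1 library and not replicates.

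In hRBC cells the same comparison rests on 21 cells with EGR1 and 748 without. IER2 was in 52.4% (29.8 to 74.3) of cells with EGR1 and 41.0% (37.5 to 44.7) without, NR4A1 in 28.6% (11.3 to 52.2) and 18.3% (15.6 to 21.3), and SRF in 19.0% (5.45 to 41.9) and 16.0% (13.5 to 18.9). All of these intervals of shares overlapped, and NR4A2 and NR4A3 were in 0 of the 21, so the shares of cells show neither a link nor a lack of one there. Across cells Pearson's r of log counts between EGR1 and IER2 was 0.38 in 5% pdRBC and 0.07 in hRBC, and between EGR1 and SRF 0.02 and 0.00.

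**Figure D4:**
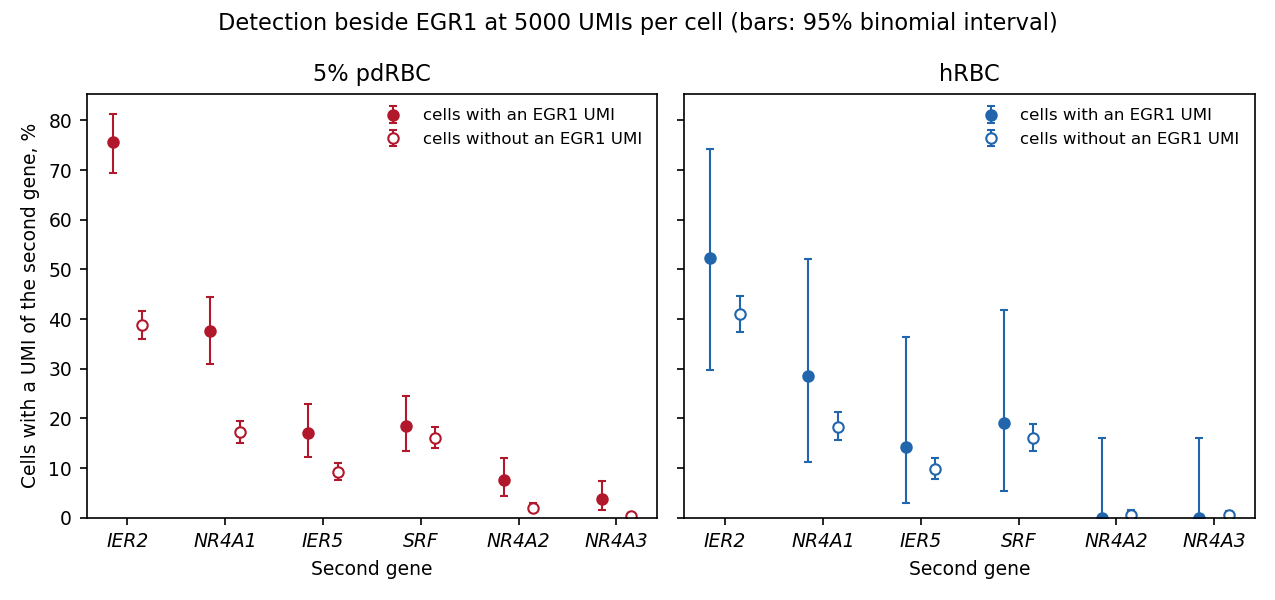
Share of cells with a UMI of a second gene among cells with and without an EGR1 UMI, at 5000 UMIs per cell, in 5% pdRBC (left) and hRBC (right), with exact binomial 95% intervals. In 5% pdRBC the shares of IER2, 75.7% and 38.8%, and NR4A1, 37.6% and 17.2%, are apart, and in hRBC all intervals overlap.

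Cells without EGR1 had close levels of IER2 and NR4A1 in both libraries. Their IER2 level was 119 CPM (110 to 128) in 5% pdRBC and 116 CPM (105 to 127) in hRBC, and their NR4A1 level 41.2 CPM (36.1 to 46.8) in 5% pdRBC and 43.9 CPM (37.4 to 51.1) in hRBC. NR4A2 in such cells was still higher in 5% pdRBC by its point value, at 4.14 CPM (2.65 to 6.16, from 24 UMIs) against 1.34 CPM (0.434 to 3.12, from 5 UMIs) in hRBC. The intervals of these levels overlapped, which does not show that the levels were close. No interval of the fold was computed for these cells. Cells with EGR1 held IER2 at 387 CPM (350 to 426) in 5% pdRBC and 238 CPM (154 to 351) in hRBC. In either library the IER2 level, in contrast to the hRBC share of cells, had intervals apart between cells with and without EGR1, in hRBC from 25 UMIs in 21 cells. In the 5% pdRBC library cells with EGR1 were a little deeper before thinning (median 11293 UMIs, against 10052.5 without), had like mitochondrial shares (1.76% and 1.81%) and less often held a UMI of a cycling gene (3.81% and 11.3%). In the hRBC library a cycling UMI was in 23.8% of the 21 cells with EGR1 and 14.6% of those without, too few cells with EGR1 for an order to be read. The part of the cell cycle in the co-detection was not tested.

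Several early genes in 1 cell were more frequent in 5% pdRBC. At least 3 of the 9 were detected in 143 cells (10.4%) of 5% pdRBC and 33 cells (4.29%) of hRBC, and 5 in 7 cells of 5% pdRBC and 0 cells of hRBC. The mean number per cell was 1.11 in 5% pdRBC and 0.901 in hRBC. Without EGR1 and NR4A2 it was 0.928 in 5% pdRBC and 0.867 in hRBC, so most of the gap came from this pair.

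Clustering of all kept cells gave 1 cluster with EGR1 among its leading genes, beside the small GTPase gene GEM and the glycoprotein hormone gene STC1. It held 391 cells with 28.8% of the UMIs of 5% pdRBC and 181 cells with 17.1% of the UMIs of hRBC. Of all EGR1 UMIs it held 82.2% in 5% pdRBC and 38.5% in hRBC. For IER2 the shares were 49.0% in 5% pdRBC and 24.0% in hRBC, for NR4A1 47.6% and 25.0%, for IER5 50.6% and 23.7%, and for SRF 33.8% and 20.8%. A small cluster of 17 cells, all of 5% pdRBC, held EGR1 at 244 CPM (32 UMIs), IER2 at 993 CPM (130 UMIs) and NR4A2 at 68.7 CPM (9 UMIs), above the 207, 283 and 11.2 CPM of 5% pdRBC cells in the cluster led by EGR1. Another small cluster, of 14 shallow cells that were all of hRBC, held EGR1 at 97.5 CPM (2 UMIs), IER2 at 390 CPM (8 UMIs) and NR4A1 at 244 CPM (5 UMIs). These exceed the 20.6, 185 and 66.2 CPM of hRBC cells in the cluster led by EGR1, but rest on few UMIs. Libraries filled the clusters unevenly: a pair of shallow clusters held 48 and 67 cells of 5% pdRBC and 753 and 584 cells of hRBC. As these genes took part in the clustering, the shares describe where the UMIs lay and are no test.

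The genes whose counts across cells were most like EGR1, out of 3178 genes with enough UMIs, included other early factors and a phosphatase. They were JUN (r of 0.53 in 5% pdRBC and 0.22 in hRBC), JUNB (0.44 and 0.23), DUSP1 (0.49 and 0.13), KLF4 (0.46 and 0.15) and CITED2 (0.40 and 0.19), over 1370 cells of 5% pdRBC and 769 cells of hRBC. For IER2 they were DUSP1 (0.37 and 0.25), JUNB (0.37 and 0.20), DUSP5 (0.28 and 0.18), JUN (0.36 and 0.09) and FOSL1 (0.19 and 0.20). NR4A1 had no close match: its best were JUND (0.17 and 0.18), KLF4, MIDN, DUSP5 and EMP1, at values too weak in sparse counts to be a finding. The minimum of 200 UMIs in each library kept genes that were sparse in hRBC out of this ranking. The hRBC values for EGR1 rest on 26 UMIs in 21 cells. Within each library all these counts share the same cells and depth.

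Around the 9 genes, several other early factors and feedback genes were higher in 5% pdRBC cells. The genes of the route to SRF had a median fold near that of all measured genes. Of 15 other early factors, all measured, 7 were called higher and 0 lower, against 1.55% and 1.09% of all measured genes, with a median log2 fold of 0.55, against 0.02 over all measured genes. FOS, which forms the AP-1 dimer with JUN, was at 106 CPM in 5% pdRBC cells and 26.5 CPM in hRBC cells (3.99-fold, 3.56 to 4.50), and ATF3, a stress-induced factor, at 96.7 and 33.5 CPM (2.88-fold, 2.59 to 3.21). FOSB was 2.48-fold higher (2.25 to 2.74), and FOSL1 was level at 200 CPM in 5% pdRBC cells and 199 CPM in hRBC cells. The list therefore held genes that were higher and genes that were level, as the 9 did.

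Of 17 genes that act as feedback on the early response, 16 were measured, 4 were called higher and 0 lower (1.55% and 1.09% of all measured genes), with a median of 0.32. ZFP36, which speeds the decay of early mRNAs, stood at 60.6 CPM in 5% pdRBC cells and 18.0 CPM in hRBC cells (3.36-fold, 2.92 to 3.89), TRIB1 was 2.08-fold higher (1.80 to 2.41) and DUSP1, a phosphatase of MAP kinases, 1.69-fold higher (1.58 to 1.81). BTG1 was level (1.01-fold, 0.962 to 1.06). NAB2, which EGR1 induces and which represses EGR proteins in return, was at 32.0 CPM in 5% pdRBC cells and 28.3 CPM in hRBC cells (1.13-fold, 0.989 to 1.30). NAB2 was named after its value was seen.

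Upstream, 0 of 16 genes of the ERK and SRF route were called higher or lower, against 1.55% and 1.09% of all measured genes (median 0.03). With shares this low a count of 0 in so short a list says little, here and in the lists below. Of the 16, 3 had an interval leaving out 1 upward and 1 downward, against 15.4% and 12.2% of all measured genes. The kinases BRAF (1.19-fold, 1.07 to 1.32) and MAP2K1 (1.11-fold, 1.02 to 1.21) were slightly higher, and RPS6KA4 was level at 45.1 CPM in 5% pdRBC cells and 44.9 CPM in hRBC cells. Transcript levels do not measure kinase activity. Among the targets of SRF with its other partner, MRTF, 10 of 12 were measured (median -0.10). Of these 0 were called higher or lower, against 1.55% and 1.09% of all measured genes. TAGLN, an actin-binding protein, was 1.39-fold lower (1.12 to 1.73), TPM1, a tropomyosin, 1.16-fold lower (1.12 to 1.21), CCN1, a matrix protein, 1.14-fold higher (1.11 to 1.17), and FHL2 level (1.02-fold, 0.975 to 1.08). Of these 10 genes, 6 had an interval leaving out 1 downward and 2 upward, against 12.2% and 15.4% of all measured genes.

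Downstream, 0 of 9 known targets of EGR1 were called higher or lower, against 1.55% and 1.09% of all measured genes, with a median of 0.06. VEGFA, the endothelial growth factor, was at 8.93 CPM in 5% pdRBC cells and 6.30 CPM in hRBC cells (1.41-fold, 1.08 to 1.88), F3, tissue factor, at 11.8 and 8.47 CPM (1.40-fold, 1.10 to 1.78), and ICAM1, a leukocyte adhesion molecule, at 33.3 and 24.7 CPM (1.34-fold, 1.17 to 1.55). Of the 9, 3 had an interval leaving out 1 downward and 3 upward, against 12.2% and 15.4% of all measured genes. These targets have other regulators, and the libraries hold 1 time only. The median of this list depended on how cells were weighted, at -0.10 with every cell weighted equally.

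Of the nuclear receptors that pair with NR4A1 and NR4A2, RXRB was 1.31-fold higher (1.10 to 1.57), RXRA was level at 45.1 CPM in 5% pdRBC cells and 45.3 CPM in hRBC cells, and RXRG was at 0 in both libraries. Of the partners of IER5, HSF1 was 1.12-fold lower (1.06 to 1.19) and the PP2A subunits PPP2R2A and PPP2R1A were 1.18-fold higher (1.08 to 1.29) and 1.04-fold lower (0.975 to 1.10). Among 9 heat shock genes 0 were called higher or lower, against 1.55% and 1.09% of all measured genes (median -0.02). HSPA1A was 1.34-fold higher (1.02 to 1.78), HSPH1 1.13-fold (1.04 to 1.24) and HSP90AA1 1.13-fold (1.10 to 1.17), while DNAJB1 was level. IER3 and IER5L, early genes named like IER2 and IER5, were 1.35-fold (1.25 to 1.45) and 1.19-fold higher (1.06 to 1.35).

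**Figure D5:**
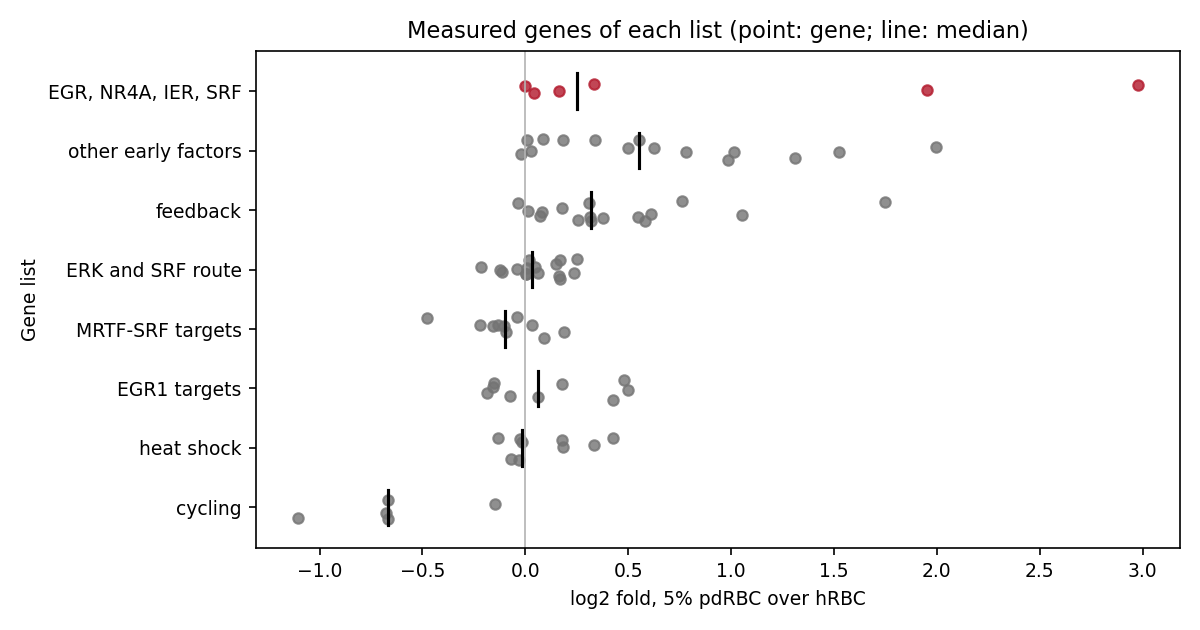
Log2 fold (5% pdRBC over hRBC) of each measured gene, as a point, and the median, as a line, for the 9 genes studied (red, 6 measured) and for 7 lists (grey). EGR1 at 2.98 and NR4A2 at 1.95 lie to the right, and the medians of the ERK and SRF route, 0.03, and of EGR1 targets, 0.06, lie near 0.

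Genes outside the early response were read for the state and identity of the cells. Of 5 cycling genes 4 were called lower, against 1.09% of all measured genes, with CDC20 at 7.87 CPM in 5% pdRBC cells and 16.9 CPM in hRBC cells, TOP2A 1.60-fold lower (1.30 to 1.97), CCNB1 1.59-fold lower (1.27 to 1.99) and MKI67 1.11-fold lower (0.969 to 1.27). The nuclear RNA MALAT1 was 1.03-fold lower (1.02 to 1.04) and NEAT1 1.22-fold higher (1.20 to 1.24). Markers of T and NK, B, myeloid, platelet and epithelial cells gave at most 8 UMIs per list in either library, and CD3D, MS4A1, PPBP and CDH1 were at 0 in both. Lymphatic markers gave 72 UMIs in 5% pdRBC cells and 51 UMIs in hRBC cells, with PDPN at 0. Fibroblast and mural markers gave 329 CPM in 5% pdRBC cells and 370 CPM in hRBC cells, and RGS5 alone made up 10213 of their UMIs. The barcodes left out by the cell filter held 2 UMIs of EGR1 (64.7 CPM) in 5% pdRBC and 16 UMIs (16.2 CPM) in hRBC, a ratio whose interval included 1. The part of the cell cycle genes in the level of EGR1 was not tested.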

How the data were processed

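HUVECs from devices perfused with 5% pdRBC or with hRBC were profiled with the 10x Genomics 5′ version 2 kit. The values are UMI counts for every gene in every deposited barcode, unnormalized. Per the file headers, the authors used Cell Ranger 7.0.0, and the submitters' processing notes name GRCh38. Annotation release, strand use and any cell filter are not stated there. Gene positions came from GENCODE release 29, matched by identifier.

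The 9 genes and all gene lists were chosen with earlier results of these data known. Kept cells had at least 1000 UMIs, at least 500 genes and no more than 20% of UMIs from mitochondrial genes. Doublets were not removed. UMIs were summed per library and divided by the library total to give CPM. Folds are 5% pdRBC over hRBC after adding 0.5 UMIs to both sums, with exact Clopper-Pearson intervals from the split of a gene's UMIs between the libraries. Genes with 100 or more UMIs over both libraries were measured. Shares have exact binomial intervals and CPM exact Poisson intervals, at the 95% level, for counting error only. A count of 0 allows up to 3 counts. The 5 depth classes begin at 1000, 2000, 5000, 10000 and 20000 UMIs. For shares of cells, each cell was thinned without replacement to 5000 or 2000 UMIs, and shallower cells were left out.

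The text names all 9 genes, from each list up to 3 measured genes with the largest fold whose interval leaves out 1 and the 1 with the smallest fold, and for EGR1, NR4A1 and IER2 the 5 genes with the highest mean r over both libraries among genes with 200 or more thinned UMIs in each. Some genes that this rule names are not reported here. Clusters came from Scanpy 1.11.5 (2000 variable genes, 30 principal components, 15 neighbours, Leiden resolution 0.5, seed 0). The fold and its interval were tested on simulated Poisson counts, which lack the spread between cells seen in these data. Python 3.11.15, numpy 2.4.6, scipy 1.17.1 and pandas 2.3.3 were used. Cells of 1 library are not replicates, so no p-values are given.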

Additional observations from a re-analysis of the deposited data

How the results depend on the processing

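No paired analysis was possible because each group is 1 library. Over 10 other settings of the cells counted, their weight and the scaling, the log2 fold of EGR1 lay between 2.68 and 3.09, of NR4A2 between 1.57 and 2.78, of NR4A1 between 0.07 and 0.37, of IER2 between 0.13 and 0.41, of IER5 between -0.20 and 0.07 and of SRF between -0.08 and 0.11. The 0.13 of IER2 came from weighting every cell equally. NR4A3 turned to -0.46 without the 10 cells of 5% pdRBC with the most UMIs of it, a setting added after seeing the data, as were leaving out the barcodes in common and shares without thinning.

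With cells thinned to 2000 UMIs, or a minimum of 500 UMIs, 1 of the 9 genes was called higher in place of 2, because NR4A2 fell below the minimum. Genes called higher and lower were 171 and 120 as reported, 348 and 237 with 20 UMIs as the minimum, 415 and 286 with 1 UMI, 48 and 36 with 500 UMIs, and 30 and 26 when a 2-fold difference was asked for. They were 345 and 269 by fold alone with every cell weighted equally, and 223 and 96 in cells of 5000 or more UMIs. The ratio of shares of cells with IER2 was 1.65 without thinning, against 1.12 at 2000 UMIs.

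With every cell weighted equally the median log2 fold was 0.073 for IER3 and IER5L, -0.23 for MRTF-SRF targets, -0.10 for EGR1 targets, -0.10 for PP2A and HSF1, -0.16 for heat shock genes and 0.22 for MALAT1 and NEAT1. In cells of 5000 or more UMIs it was 0.093 for heat shock genes and 0.15 for MALAT1 and NEAT1. With cells thinned to 2000 UMIs it was 0.14 for IER3 and IER5L, -0.079 for EGR1 targets and 0.16 for MALAT1 and NEAT1. The cause of these shifts was not tested. Leaving out rich cells of 1 library can only lower a fold. The counts of EGR2, EGR3 and NR4A3 are too small for a firm fold, and the 21 hRBC cells with EGR1 limit what can be said of co-detection there.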
